A study of Mus musculus with 10 samples.

Results

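Standalone long noncoding RNA (lncRNA) genes were taken as autosomal RefSeq lncRNA genes of the mouse build mm10 (GRCm38.p6) with both ends more than 5 kb from any protein-coding gene. Of 12408 autosomal lncRNA genes, 6321 met this definition, out of 34614 gene promoters examined on the autosomes, X and Y. Each gene was represented by a window that holds 1 gene end and 2 kb to each side of it. The window was placed at the end with the higher mean coverage by H3K4me3 peaks over 8 libraries, and a window counted as marked in a library when peak sequence covered any of it. The members closest to the distance limit were Gm10451 at 5005 bp, Gm52181 at 5008 bp and Gm52187 at 5009 bp from a coding gene, and all 3 were unmarked in every library. Gm40621 at 4987 bp, Gm42142 at 4985 bp and Gm40411 at 4975 bp fell just short of it and were also unmarked in every library. Of the members, 42 have a gene body that overlaps a coding gene although both ends lie far from one.

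H3K4me3 ChIP-seq was performed on NeuN+ neuronal nuclei sorted from the dissected CA1 area of the mouse hippocampus. NeuN is a nuclear protein of most mature neurons. The data comprise 4 libraries from CamkdeltaC transgenic mice and 4 from wildtype littermate controls, all labelled male and 3 months old. The series' title sets the transgene in a study of heart failure and memory, and the comparison asks whether the neuronal mark differs between these genotypes. The labels do not name the promoter that drives the transgene. Their treatment text describes vorinostat or vehicle in the drinking water of transgenic mice and vehicle for controls, and no sample label says which of these a transgenic sample received. Whether the libraries of a genotype came from different mice is not labelled, and the spread behind each p-value may therefore be technical. The 2 input samples, 1 per genotype, were not analysed here.

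Trimethylation of lysine 4 on histone H3 is laid down around the start sites of genes that are transcribed or ready for transcription. In mammals it is directed in large part to CpG islands, stretches rich in the dinucleotide CG that escape DNA methylation and are bound by CXXC-domain proteins of the methyltransferase complexes. Many lncRNA genes share a start region with a coding neighbour, so that a mark there cannot be assigned to either gene. The standalone genes lack such a neighbour, and a peak at their start belongs to no annotated coding promoter. Among them are nuclear RNAs such as Malat1 and Neat1, and precursors that are cut into neuronal microRNAs such as miR-9 and miR-124.

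Marking went with the CG content of the annotated start, so 9 starts are shown that differ in it. Each is 300 bp of RefSeq sequence (GRCm38.p6), from 250 bp before to 50 bp after the annotated start, read 5′ to 3′ on the gene's strand with CG dinucleotides in capitals. The microRNA precursor genes E130102H24Rik (chr4:101356199-101356498, minus strand), Mir9-3hg (chr7:79499776-79500075, plus strand) and C130071C03Rik (chr13:83721131-83721430, plus strand) were marked in all 8 libraries and hold 47, 35 and 12 CG. The neuronal nuclear RNA Miat (chr5:112228899-112229198, minus strand), the snoRNA host Snhg11 (chr2:158375463-158375762, plus strand) and Malat1 (chr19:5802623-5802922, minus strand) were likewise marked in all 8 and hold 25, 21 and 10 CG.
E130102H24Rik: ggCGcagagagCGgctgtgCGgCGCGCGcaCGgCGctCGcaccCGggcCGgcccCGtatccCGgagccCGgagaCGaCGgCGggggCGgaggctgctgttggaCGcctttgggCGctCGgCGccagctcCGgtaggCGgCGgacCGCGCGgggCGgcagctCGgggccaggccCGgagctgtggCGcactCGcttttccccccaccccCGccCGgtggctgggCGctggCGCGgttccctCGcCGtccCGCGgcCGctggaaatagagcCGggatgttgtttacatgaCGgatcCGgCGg
Mir9-3hg: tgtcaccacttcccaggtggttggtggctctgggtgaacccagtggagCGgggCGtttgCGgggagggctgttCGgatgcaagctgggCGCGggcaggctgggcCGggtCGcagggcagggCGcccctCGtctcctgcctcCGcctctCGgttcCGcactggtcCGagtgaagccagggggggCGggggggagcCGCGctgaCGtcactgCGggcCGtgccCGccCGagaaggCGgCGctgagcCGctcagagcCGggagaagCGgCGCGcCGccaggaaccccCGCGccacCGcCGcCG
Miat: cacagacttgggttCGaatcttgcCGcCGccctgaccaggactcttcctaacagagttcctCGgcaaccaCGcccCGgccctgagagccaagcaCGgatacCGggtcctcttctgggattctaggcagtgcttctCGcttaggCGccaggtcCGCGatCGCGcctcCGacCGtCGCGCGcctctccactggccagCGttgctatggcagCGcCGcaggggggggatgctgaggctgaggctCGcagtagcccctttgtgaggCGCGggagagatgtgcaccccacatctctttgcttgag
Snhg11: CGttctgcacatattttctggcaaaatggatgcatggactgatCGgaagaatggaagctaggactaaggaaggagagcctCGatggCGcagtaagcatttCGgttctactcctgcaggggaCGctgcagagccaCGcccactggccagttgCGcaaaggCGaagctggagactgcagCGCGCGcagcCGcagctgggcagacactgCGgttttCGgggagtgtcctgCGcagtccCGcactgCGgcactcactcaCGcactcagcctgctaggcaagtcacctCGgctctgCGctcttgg
C130071C03Rik: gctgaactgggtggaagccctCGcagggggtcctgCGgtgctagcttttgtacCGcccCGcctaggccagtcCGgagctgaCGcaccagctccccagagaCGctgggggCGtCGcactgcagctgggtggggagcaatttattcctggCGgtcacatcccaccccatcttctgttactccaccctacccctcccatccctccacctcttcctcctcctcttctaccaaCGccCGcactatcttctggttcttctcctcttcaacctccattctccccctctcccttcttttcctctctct
Malat1: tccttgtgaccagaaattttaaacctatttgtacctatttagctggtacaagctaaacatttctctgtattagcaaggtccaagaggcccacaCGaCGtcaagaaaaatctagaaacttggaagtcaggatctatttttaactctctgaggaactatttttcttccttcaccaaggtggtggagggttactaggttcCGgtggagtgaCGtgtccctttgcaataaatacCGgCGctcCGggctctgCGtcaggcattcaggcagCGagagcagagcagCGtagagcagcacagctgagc

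The other 3 starts hold fewer CG or no mark. Gm40975 (chr13:60953849-60954148, plus strand) holds 0 CG and was nonetheless marked at both of its ends in all 8 libraries. The retinal RNA BB283400, also called Rncr4 (chr6:30176373-30176672, plus strand), holds 13 CG and was unmarked in every library. Lincmd1 (chr1:20669632-20669931, plus strand), a muscle RNA that hosts miR-206 and miR-133b, holds 2 CG and was unmarked in every library.
Gm40975: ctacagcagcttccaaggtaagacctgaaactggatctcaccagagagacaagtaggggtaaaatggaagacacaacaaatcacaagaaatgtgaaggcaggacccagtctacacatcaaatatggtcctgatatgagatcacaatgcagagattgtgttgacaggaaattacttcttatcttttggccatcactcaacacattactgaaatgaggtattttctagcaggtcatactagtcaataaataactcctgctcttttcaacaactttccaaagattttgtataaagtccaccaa
BB283400: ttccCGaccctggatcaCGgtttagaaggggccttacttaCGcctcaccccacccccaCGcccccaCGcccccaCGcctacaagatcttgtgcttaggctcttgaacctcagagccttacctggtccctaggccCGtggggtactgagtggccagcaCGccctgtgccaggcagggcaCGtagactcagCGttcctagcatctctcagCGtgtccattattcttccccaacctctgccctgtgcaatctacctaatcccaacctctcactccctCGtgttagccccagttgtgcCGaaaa
Lincmd1: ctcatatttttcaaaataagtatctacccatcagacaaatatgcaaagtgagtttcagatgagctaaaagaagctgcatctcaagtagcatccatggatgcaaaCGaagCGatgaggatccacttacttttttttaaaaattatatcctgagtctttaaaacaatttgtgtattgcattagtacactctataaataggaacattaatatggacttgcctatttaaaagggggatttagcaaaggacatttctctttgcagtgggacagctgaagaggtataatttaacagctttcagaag

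Of the members, 46 enclose a microRNA gene. RefSeq mature sequences follow for products of marked and unmarked hosts, with the seed (bases 2 to 8), which pairs with target RNAs, in capitals. They were not measured here and only show what these hosts encode. The RNA miR-9-5p is encoded in 3 members, C130071C03Rik, Mir9-3hg and Gm3764. E130102H24Rik encloses miR-101a, and Mir100hg encloses miR-100 and miR-125b. The let-7 products let-7b-5p and let-7c-5p, which share 1 seed, are encoded in Lncppara. Lncppara was unmarked in every library, as was the miR-206 host Lincmd1. MicroRNA genes that no member encloses were not searched for the same products.
miR-9-5p: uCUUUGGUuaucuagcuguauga
miR-101a-3p: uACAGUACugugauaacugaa
miR-100-5p: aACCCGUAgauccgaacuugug
miR-125b-5p: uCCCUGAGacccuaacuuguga
let-7b-5p: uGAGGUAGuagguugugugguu
let-7c-5p: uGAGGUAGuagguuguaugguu
miR-206-3p: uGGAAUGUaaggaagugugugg

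Several libraries went against their male label. Controls 2 and 3 and transgenics 1 and 4 had peaks over 2370 to 2685 bp of the Xist window, 13023 to 31362 peaks on X and none at 4 Y-linked genes. Controls 1 and 4 and transgenic 3 had no Xist peak and all 4 Y-linked genes marked, and transgenic 2 had neither. Each genotype thus held 2 libraries with and 2 without an Xist peak, and group values are given within both sets below. The lists held 51903 to 102285 peaks, and on the autosomes they covered 44.7 ± 1.45 Mb in transgenics and 38.5 ± 2.24 Mb in controls (SD, n = 4 each), groups that did not overlap. The files give peaks and no reads, so depth is unknown. All 5 neuronal marker promoters and 4 of 5 of CA1 were marked in all 8 libraries. So were 7 of 10 markers of other neurons, among them Prox1 of the dentate gyrus and Gad1 and Gad2 of inhibitory neurons. Of non-neuronal markers, 2 of 5 of astrocytes, 2 of 8 of the oligodendrocyte lineage, 2 of 4 of endothelium and 0 of 5 of microglia were marked in all 8. Those at 0 in every library were 1 of astrocytes, 2 of the oligodendrocyte lineage, 2 of endothelium and 4 of microglia. The 5 cardiomyocyte markers were at 0 in every library.

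Most standalone lncRNA promoters held no H3K4me3 peak in these nuclei, and of those that did, fewer were marked in all libraries than in some. Of the 6321 windows, 5065 (80.1%) were unmarked in all 8 libraries, 696 (11.01%) were marked in 1 to 7, and 560 (8.86%) were marked in all 8. The 560 fall in 513 separate places, because 94 of them overlap the window of another, as in pairs of lncRNA genes that start back to back. Among the 696, 232 were marked in a single library. The share marked in all 8 was 37.1% for the other 6087 autosomal lncRNA genes, whose windows can include a neighbouring coding start. It was 53.0% for 10372 protein-coding genes with both ends more than 5 kb from any other coding gene.

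**Figure D1:**
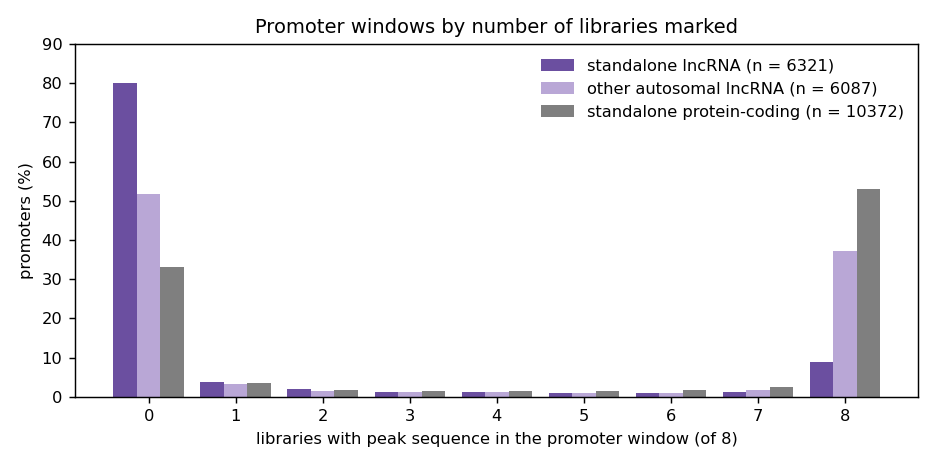
Share of promoter windows (y axis, %) by the number of libraries in which they hold peak sequence (x axis), for standalone lncRNA, other autosomal lncRNA and standalone protein-coding genes. Standalone lncRNA windows are mostly at 0 libraries (80.1%), with a second group at 8 (8.86%).

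Where present, the mark was narrower and weaker than at coding genes. Members marked in all 8 libraries had a median of 855 bp covered (interquartile range 559 to 1465 bp), against 1741 bp for coding promoters marked in all 8. Of the 560, 56 reached a mean of 2000 bp, against 4746 of 13096 such coding promoters (36.2%). Peaks of 180 of the 560 ran past a window edge in at least 1 library, so for these the covered length is a lower limit. The authors' fold enrichment of the strongest peak in the window had medians of 9.48 to 11.8 over the 8 libraries for these members and of 25.9 to 42.4 for autosomal coding promoters marked in all 8. This enrichment is the authors' own value per peak and only describes the lists. Members marked in 1 to 7 libraries had a median mean coverage of 78.5 bp, and their peaks had median fold enrichments of 4.66 to 5.29.

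In most members marked in all 8 libraries for which RefSeq gives a strand, the window lay at the annotated start. Strand was available for 4790 members and was not used to choose the window. The annotated 5′ end was marked in all 8 libraries in 353 of them (7.37%) and the 3′ end in 161 (3.36%). Of the 418 members with strand that were marked in all 8, the window lay at the annotated 5′ end in 325 (77.8%), against 93.6% of standalone coding genes. Both windows overlap in short genes. In the 2689 members longer than 8000 bp the 5′ end was marked in all 8 in 7.47% and the 3′ end in 1.97%.

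Averaged over members with strand, peak coverage was highest 150 bp downstream of the annotated 5′ end, at 5.54% ± 0.263 of bases (SD over 8 libraries). It was 2.77% ± 0.212 at 950 bp downstream and 1.38% ± 0.0927 at 950 bp upstream, so the mark leaned into the gene. At 4950 bp to either side it had fallen to 0.763% to 0.789%. Around the 3′ end it ran from 0.561% at 550 bp downstream to 1.49% at 1350 bp upstream. Standalone coding genes peaked at 44.0% ± 3.11, 350 bp downstream of their start.

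**Figure D2:**
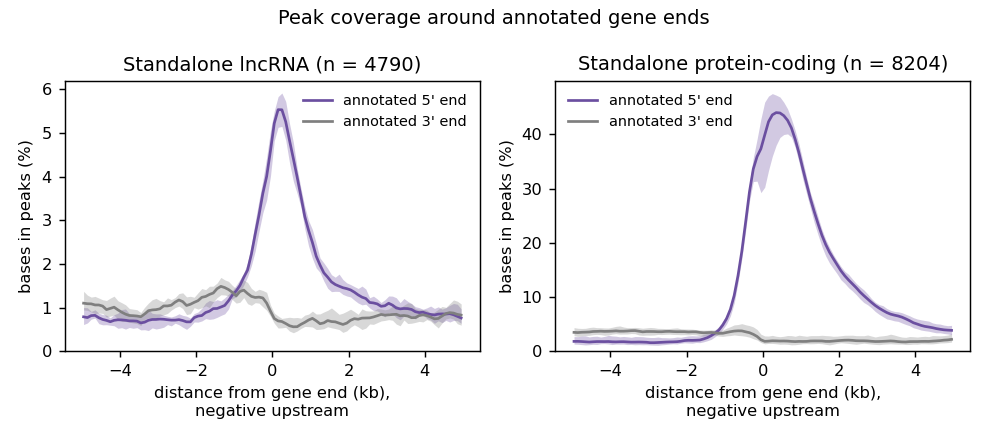
Percentage of bases within peaks (y axis, scales differ between panels) by distance from the annotated 5′ and 3′ end in kb (x axis), for standalone lncRNA and standalone protein-coding genes. Lines are means of 8 libraries and bands run from the lowest to the highest library. LncRNA starts reach 5.54% and coding starts 44.0%.

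Marking rose with the CG content of the start from about 4 CG upward. Start sequences were matched for 4706 members. Starts marked in all 8 libraries had a median of 7 CG per 300 bp (interquartile range 4 to 14), unmarked starts 3 (1 to 5). The share of starts marked in all 8 libraries was 3.22% of 1087 with 0 or 1 CG, 2.83% of 1447 with 2 or 3, 6.13% of 1289 with 4 to 6, 11.04% of 598 with 7 to 10, 29.6% of 179 with 11 to 15, 50.0% of 48 with 16 to 20, and 84.5% of 58 with 21 or more. In each of the 7 classes of CG content the lncRNA share lay below that of standalone coding starts, of which 94.5% with 21 or more CG were marked in all 8. CG-rich lncRNA starts were few, since 58 of 4706 held 21 or more CG against 2219 of 7677 coding starts.

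**Figure D3:**
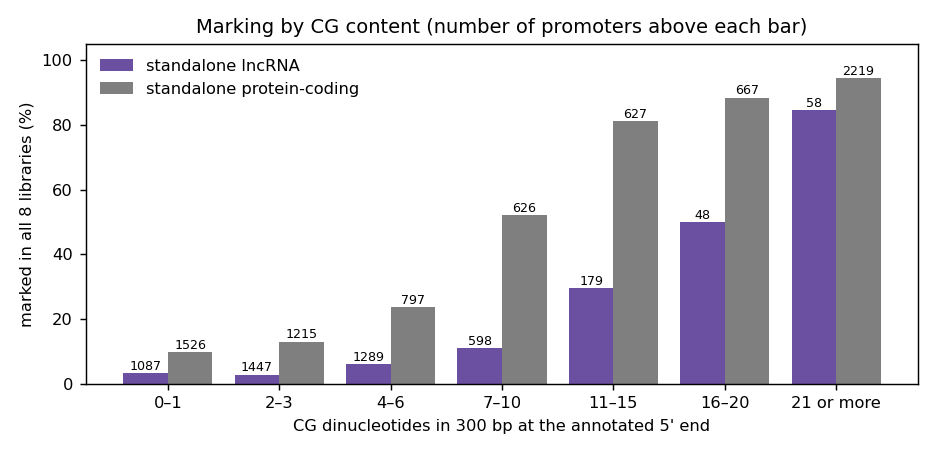
Share of promoters marked in all 8 libraries at the annotated 5′ end (y axis, %) by the number of CG dinucleotides in 300 bp (x axis), for standalone lncRNA and standalone protein-coding genes, with the number of promoters above each bar. The lncRNA share rises from 3.22% at 0 or 1 CG to 84.5% at 21 or more.

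Exceptions occurred at both ends of this range. Of the 58 starts with 21 or more CG, 4 were unmarked in all libraries, those of 2410018L13Rik, Gm36767, Gm24463 and Gm33061. Of the 1087 with 0 or 1 CG, 35 were marked in all 8, and the widest were Gm4258 with a mean of 2414 bp, Gm6093 with 2231 bp, B230209E15Rik with 2128 bp, Gm30382 with 1956 bp and Gm52067 with 1831 bp covered. Short motifs were searched on both strands. The GC box GGGCGG occurred in 32.0% of starts marked in all 8 and in 6.12% of unmarked starts, against 36.0% of all 25604 promoters of this length, and it contains a CG itself. The TATA motif TATAAA occurred in 13.8% and 18.7%, against 14.3% of all promoters. CCAAT occurred in 33.1% and 37.3%, and the cyclic AMP response motif TGACGTCA in 2.02% and 0.658%, against 38.0% and 1.86% of all promoters. A match describes letters in the window and not a bound site.

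Members far from coding genes were marked less often. The share marked in all 8 was 11.6% of 734 members 5 to 10 kb from the nearest coding gene, 12.3% of 919 at 10 to 20 kb, 8.11% of 1073 at 50 to 100 kb, and 4.34% of 852 at 200 to 500 kb. Members that enclose a small RNA gene were marked more often than members at large. Of the 46 microRNA hosts, 20 (43.5%) were marked in all 8 libraries and 17 in none, and of 58 snoRNA hosts 13 (22.4%) were marked in all 8 and 41 in none. The widest snoRNA hosts were Snhg11, Snhg5 with 1863 to 2378 bp covered over the 8 libraries, Dancr, 5730522E02Rik with 1347 to 1881 bp and Snhg17 with 982 to 1460 bp. The widest members of all included genes on none of the lists. E130102H24Rik ranged from 3249 to 3747 bp, 2210408F21Rik, which starts back to back with Lncpint, from 3523 to 3857 bp, 2810410L24Rik from 3186 to 3799 bp and Gm17762 from 3080 to 3417 bp. The window of 2810410L24Rik lay at its annotated 3′ end. The median summit of the strongest peaks lay outside the window for both 2810410L24Rik and 2210408F21Rik. The window of 4922502B01Rik was covered whole in 5 libraries and over at least 3893 bp in the other 3.

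Among lncRNAs with known roles, 5 lists were examined, of which 28 symbols were standalone genes. All 8 of the nuclear or broadly expressed RNAs were marked in all libraries. Malat1, an abundant nuclear RNA that lies in splicing speckles, had 3122, 3240, 3173 and 3741 bp covered in controls 1 to 4 and 3118, 3300, 3363 and 3626 bp in transgenics. The groups overlapped at Malat1. Neat1, the scaffold of nuclear paraspeckles, ranged more widely, with 895, 1128, 1771 and 2389 bp in controls and 1312, 2530, 2220 and 2430 bp in transgenics. Miat, a nuclear RNA of neurons, had the narrowest range of this list, from 2331 to 2446 bp over the 8 libraries. Snhg11, a neuronal snoRNA host, ranged from 2331 to 2498 bp. Pvt1, a neighbour of Myc, ranged from 2221 to 3034 bp, and Dancr, which restrains differentiation of progenitors, from 1658 to 2207 bp. Oip5os1 (Cyrano), which controls a circuit of microRNAs, ranged from 1228 to 1939 bp, and Norad, which binds Pumilio proteins, from 599 to 1271 bp.

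Of 13 standalone lncRNAs of neural development and neurons, 10 were marked in all 8 libraries. The widest were microRNA hosts. C130071C03Rik, which encloses Mir9-2, was covered over the whole window in control 1 and in transgenics 2 and 3, over 3762 to 3885 bp in the other controls and over 3873 and 3878 bp in the other transgenics. Its start lies back to back with that of Gm52046, whose window was covered whole in every library. Mir124a-1hg ranged from 3173 to 3573 bp, Mir9-3hg from 2867 to 3176 bp and Mir124-2hg from 2287 to 2709 bp. Mir100hg and Tunar, the latter an RNA of pluripotency and neural differentiation, ranged from 1908 to 2564 bp and from 1818 to 2465 bp. Pantr2, next to the neural factor gene Pou3f3, ranged from 1375 to 2410 bp. Rmst, a partner of Sox2 in neurogenesis, had 845, 1312, 2220 and 2533 bp in controls and 1009, 1302, 2380 and 2263 bp in transgenics, so that 4 libraries were low and 4 high with both genotypes in each. The median summit of the strongest peaks at Rmst lay outside its window. Mir99ahg, which encloses no microRNA gene in the annotation used here, had 1446, 2102, 1660 and 1664 bp in controls. It had 2123, 2090, 2298 and 2174 bp in transgenics, and the groups overlap only between control 2 and transgenic 2. Mir17hg, host of a proliferation-linked microRNA cluster, was marked in every library but over only 195 to 322 bp. The median summit of its strongest peaks lay at -1991.5 bp from its start, at the edge of the window, so the window may cut the covered length.

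The other 3 neural members were marked in fewer libraries. Sox1ot, around the neural stem cell gene Sox1, had 1594, 1594, 585 and 1465 bp in controls and 0, 985, 1927 and 2149 bp in transgenics. It was thus unmarked in transgenic 1 alone. Sox2ot was marked over 200 bp in transgenic 3 only, and BB283400 in no library.

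Of the few standalone members of the other lists, 1 of 2 imprinted, 1 of 3 patterning and 0 of 2 heart RNAs were marked in all 8 libraries. H19, a maternally expressed imprinted RNA, was marked in all 8 libraries but over only 35 to 215 bp, at the edge of its window, and the median summit of its peaks lay outside it. Mirg, the microRNA-rich imprinted RNA of the Dlk1-Dio3 region, was marked at its 3′ end over 338, 304, 391 and 0 bp in controls and over 0, 0, 224 and 0 bp in transgenics. Lncpint, a p53-induced RNA, was covered over the whole window in 7 libraries and over 3710 bp in transgenic 1. The Hox RNA Hotair was marked in 1 library, over 398 bp. Of the heart RNAs, Carmn was marked in 2 libraries over 200 and 204 bp and Bvht (Braveheart) in 1 over 211 bp. These libraries were transgenic, and the authors' fold enrichments there were only 4.01 to 4.57. Such sparse marking occurred in both groups, as each control alone marked 19 to 42 members and each transgenic alone 14 to 41. The cardiomyocyte marker promoters were at 0 in every library.

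**Figure D4:**
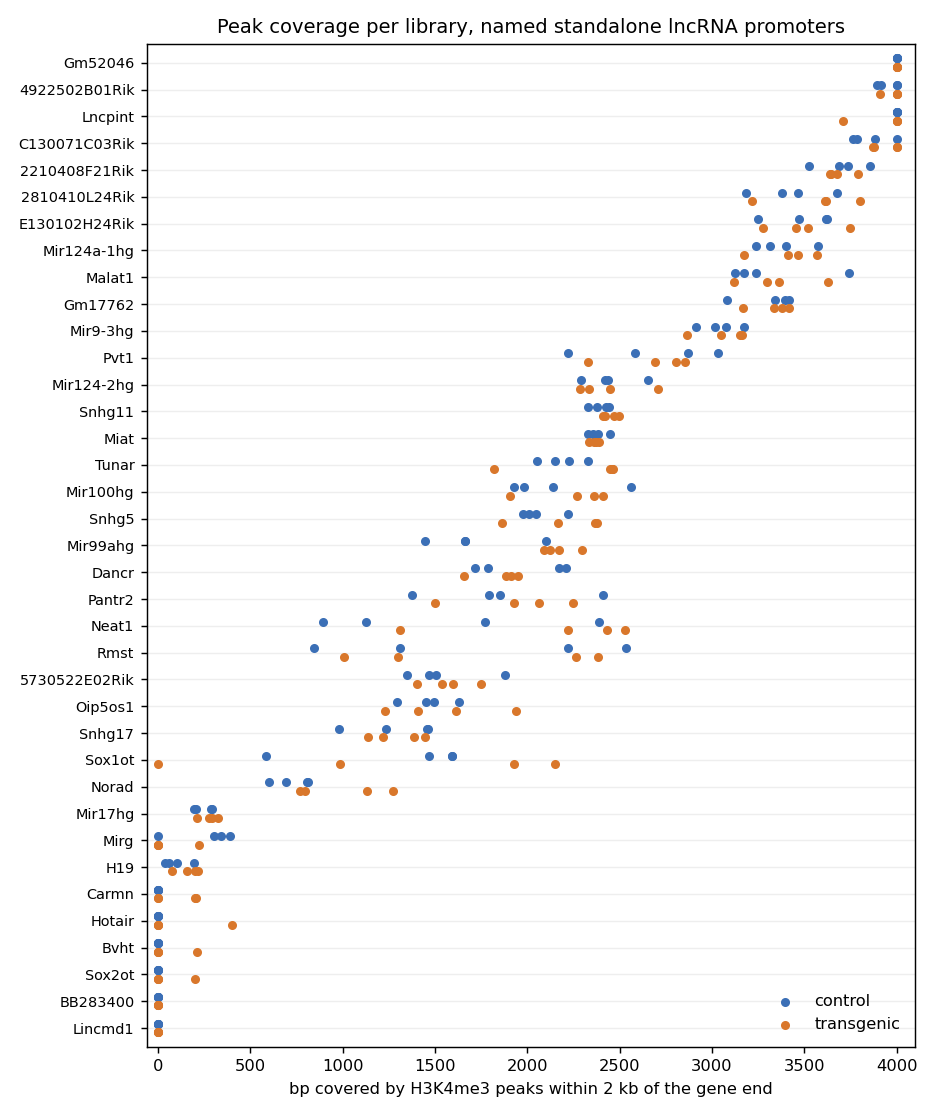
Base pairs covered by H3K4me3 peaks within 2 kb of the gene end (x axis) for the widest members, the listed RNAs and the widest microRNA and snoRNA hosts (y axis). Each point is 1 library, controls in blue and transgenics in orange. Most rows overlap between the groups, and Neat1, Rmst and Sox1ot have the widest spreads.

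Across all members the groups differed by little. The share of members marked in a library was 13.4% ± 0.519 in transgenics and 12.9% ± 0.689 in controls (SD, n = 4 each), and the groups overlapped. The mean coverage per member, unmarked ones included, was 97.8, 104.8, 104.2 and 115.1 bp in controls 1 to 4 and 110.9, 119.1, 115.4 and 116.7 bp in transgenics. The groups overlapped through control 4 and transgenic 1, and the transgenic mean of 115.5 ± 3.41 bp lay above the control mean of 105.5 ± 7.16 bp. The difference in mean coverage was 9.31 bp within the libraries with an Xist peak and 10.7 bp within those without. The difference in share was 0.0475 and 0.910 percentage points in these sets. With the same number of top-ranked peaks kept in every list, the share was 0.423 percentage points lower in transgenics and the mean coverage 4.57 bp higher. Transgenic lists covered more of the autosomes, as given above, and the part of this in the members' values was not tested. In such bulk nuclei, fewer marked nuclei and a smaller mark per nucleus cannot be told apart.

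No member passed the test for a difference in breadth between the genotypes. The test was limma on log2(bp covered + 100), centred on constant coding promoters, over all 17597 autosomal promoters marked in at least 4 libraries, of which 829 were members. The other members were marked in fewer libraries and were not tested. At a Benjamini-Hochberg adjusted p under 0.05, 0 members and 0 of all tested promoters (percent called 0) were called. At an unadjusted p under 0.05, 43 members were higher and 5 lower in transgenics, against 2.8% and 1.39% of all tested promoters. All 4 transgenic values lay above all 4 controls in 21 members and below in 5, against 1.26% and 1.03% of all tested. Both pairs of counts include 2 members marked in transgenics only and 2 marked in controls only. These passed the filter only through that genotype, which fixed their lack of overlap in advance. Among the 560 members marked in all 8 libraries, 17 lay above and 3 below. No share over all promoters was taken there, so these counts cannot be read against one. The median log2 difference was 0.04 over the 829 members, with 498 above 0 and 331 below, and -0.01 over all tested. Under quantile normalization in place of centring the members' median was -0.0032, and 14 members lay above and 20 below. With the same number of top-ranked peaks kept in every list, the members' median was 0.014. Of the 770 members tested there, 14 lay above and 7 below, and 27 were higher and 12 lower at an unadjusted limma p under 0.05. No share over all promoters was taken under these alternatives. A 95% interval within 1.5-fold either way was reached by 303 of the 829 members (36.6%), against 79.3% of all tested promoters, so for most members larger differences were within the error. With ordinary in place of trended and robust variances, limma called 1 member higher and 2 lower, against 0.0455% and 0.017% of all tested promoters. The called members were all marked in 1 genotype only and passed the filter only through it, so these calls give no support for a difference.

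The 5 members with the smallest limma p among those higher in transgenics were little-studied genes. In 4 of them, Gm40975, Gm30645, 1700030N03Rik and Gm41141, the window lay at the annotated 3′ end, and RefSeq as used here gave no strand for Gm38947. Gm38947, beside the vomeronasal receptor gene Vmn1r88 (window chr7:13203238-13207238), had 280, 379, 285 and 422 bp covered in controls and 1768, 1106, 1233 and 1117 bp in transgenics. All transgenic values of Gm38947 lay above all controls, with a log2 difference of 1.64 ± 0.20 (SE, n = 4 against 4) and a limma adjusted p of 0.239. Gm40975, which was marked at both ends, had at its 3′ end 1670, 1436, 1583 and 1813 bp in controls and 2419, 2036, 2531 and 2157 bp in transgenics (log2 difference 0.45 ± 0.10, limma adjusted p 0.575). Gm30645 and 1700030N03Rik also had groups that did not overlap, at 369 ± 174 bp against 967 ± 173 bp and at 793 ± 211 bp against 1704 ± 465 bp for controls against transgenics (SD, n = 4 each). The authors' fold enrichments at these 4 members ranged from 3.58 to 11.1.

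Gm41141 was the fifth of these and was unmarked in every control and at its annotated 5′ end in every library, with 640, 289, 220 and 763 bp in transgenics. Its fitted difference depends on the 100 bp added and is not given. Presence in all 4 libraries of 1 genotype and none of the other was found in 2 of 6321 members for transgenics and in 2 for controls (0.0316% each). Among all 33073 autosomal promoters it was found in 8 (0.0242%) and 3 (0.00907%). Besides Gm41141, the other transgenic case was AI463229 with 291, 300, 200 and 207 bp. The control cases were Gm40122 with 200, 304, 363 and 406 bp and Gm32542 with 278, 286, 221 and 280 bp. All 4 members had narrow peaks with authors' fold enrichments of 3.77 to 6.08. Gm41141 was the widest of them and reached 763 bp in transgenic 4. Cut to the same number of peaks per library, the lists gave 1 such member for transgenics and 4 for controls, and at annotated 5′ ends 0 and 2.

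The other members with the smallest p among those lower in transgenics were Gm48893, A730013G03Rik and Gm34542. Gm48893 had 1294, 1226, 1635 and 1520 bp in controls and 873, 1016, 1203 and 1249 bp in transgenics, which overlap (log2 difference -0.38 ± 0.10, limma adjusted p 0.800). A730013G03Rik had 1369 ± 49.2 bp in controls and 1149 ± 205 bp in transgenics with no overlap, and Gm34542 995 ± 101 bp and 802 ± 96.5 bp with overlap (SD, n = 4 each).

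**Figure D5:**
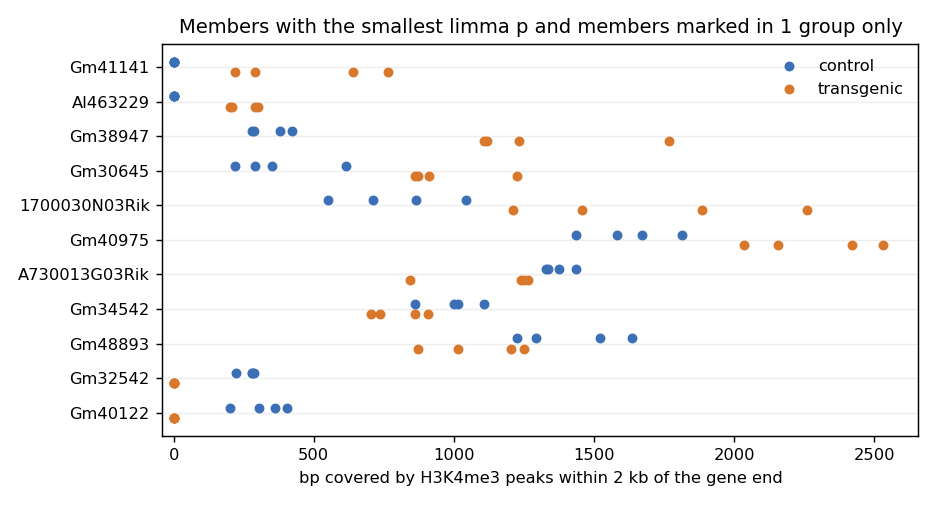
Base pairs covered by H3K4me3 peaks (x axis) in the members with the smallest limma p in each direction and those marked in 1 genotype only (y axis). Each point is 1 library, controls in blue and transgenics in orange. Gm38947 runs from 280 to 422 bp in controls and from 1106 to 1768 bp in transgenics, and no member passed the adjusted threshold.

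Of the 31 other named members that were tested, the log2 differences ran from -1.21 for Mirg to 0.46 for Neat1, and the smallest limma adjusted p was 0.946. Their intervals were narrow at the widest promoters. Mir9-3hg gave -0.10 to 0.07 and Malat1 -0.10 to 0.09 as the 95% interval of the log2 difference. They were wide where libraries disagreed, as in Neat1 with -0.12 to 1.05 and Sox1ot with -2.57 to 1.21.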

How the data were processed

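H3K4me3 was mapped by ChIP-seq with single 50-bp reads, per the labels' protocols, from 0.2 µg of chromatin and 1 µg of antibody. The submitters' processing notes name Bowtie2 2.0.2, SAMtools 1.3.1, FastQC 0.11.5, deepTools 3.0.1, DiffBind, limma and MACS2, and the build mm10, without roles or settings. The authors deposited 1 peak list per library, with a score, a fold enrichment (ratio) and −log10 p-values and q-values per peak. The deposited score was not used. The background library of each list is not stated in the labels or files.

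Peaks were merged within a library and base pairs covered were summed in windows of 2 kb to each side of gene ends from RefSeq (GRCm38.p6). Breadth was tested with limma 3.58.1 (R 4.3.3; trended and robust variances) on log2(bp + 100), with every library centred on its median over coding promoters marked in all 8 libraries, with Benjamini-Hochberg adjustment over 17597 promoters marked in at least 4 libraries. The test was checked on simulated data. Shares, coverage, CG content and motifs were described without a test. Start sequences were matched for 4706 of 6321 members, and mature sequences for 69 of 78 enclosed microRNA genes. A deeper or cleaner library gives more and wider peaks, and the lists hold no counts by which to set this apart.

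Members named were the 10 widest, the 5 tested with the smallest p in each direction, those marked in 1 genotype only, the 3 on either side of the distance limit, the 5 widest microRNA and snoRNA hosts, and every member of 5 lists. The members and lists were chosen with earlier results of these data known. Of 76 listed symbols, 67 were matched and 28 were members. Alternatives changed the added bp (10 and 500), centring, variances, filters, peak threshold and number, window (1 kb), distance (10 kb), chosen end, replicate block and each library left out; the terms for Xist and equal autosomal peak numbers were added after seeing the data.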

Additional observations from a re-analysis of the deposited data

Results flagged for a closer look

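Of 106 groups of 4 libraries examined, 11 held 1 library far from the other 3 by Dixon's criterion. It flags about 1 in 20 groups by chance where values are not tied. At Mirg, Hotair, Bvht, Sox2ot, Lncpint and 4922502B01Rik the other 3 were tied at 0 or at the whole window, which is flagged whenever 1 library differs. The 11 can therefore not be set against that rate. Transgenic 1 stood apart with low coverage at A730013G03Rik (842 bp against 1239 to 1263 bp), Tunar (1818 bp against 2445 to 2465 bp) and Lncpint (3710 bp against the whole window). It stood apart with high coverage at Gm30645 (1224 bp against 860 to 912 bp). Transgenic 2 was low at 4922502B01Rik (3909 bp against the whole window). Transgenic 3 alone of its group was marked at Mirg (224 bp), Bvht (211 bp) and Sox2ot (200 bp), and transgenic 4 alone at Hotair (398 bp). Among controls, control 3 was low at Sox1ot (585 bp against 1465 to 1594 bp) and at Gm32542 (221 bp against 278 to 286 bp).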

How the results depend on the processing

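No member was called in limma under any alternative except ordinary variances. These called 1 member higher (AI463229) and 2 lower (Gm32542 and Gm40122), and 11 of all 17597 tested promoters. The called members were all marked in 1 genotype only and at 0 in every library of the other, where values hardly vary. They passed the filter of 4 libraries only through the marked genotype, so the calls give no support for a difference. Members with groups apart numbered 12 above and 3 below at annotated 5′ ends, 3 below with a 1-kb window, 3 below with a peak in all 8 libraries, and 20 below under quantile normalization. They numbered 14 above and 7 below with equal numbers of top-ranked peaks, and also with equal autosomal numbers. No share of groups apart over all promoters was taken under any alternative. The share marked in all 8 was 7.85% and in none 81.7% with equal numbers of top-ranked peaks, 8.16% and 81.4% with equal autosomal numbers, 7.29% and 83.8% with a 1-kb window, and 7.37% and 84.0% at annotated 5′ ends. The difference in share marked per library, transgenic minus control, turned to -0.423 percentage points when lists were cut to equal length and to -0.479 when their autosomal peaks were. Members in transgenics only numbered 1 with either of these and 0 at annotated 5′ ends, and members in controls only 4 with either, 1 at the stricter q-value and 1 with a 1-kb window. With 1 library left out in turn, groups apart ranged from 33 to 46 above and from 7 to 16 below, and members in 1 genotype only from 2 to 6 for transgenics and from 2 to 7 for controls, where each count takes fewer libraries to be met. Except for these counts of fewer libraries, the cause was not tested. Ordinary variances, the replicate block and a term for an Xist peak do not alter the values behind the counts of groups apart. Of the 31 widest and listed members tested, 24 changed sign of the log2 difference under at least 1 alternative, and none of these 31 was called under any.

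With a 1-kb window, the sign turned for Rmst at -0.27, Snhg5 at -0.057, Tunar at -0.046, C130071C03Rik at -0.00025, Gm17762 at 0.0066, Mir9-3hg at 0.013, Mir124a-1hg at 0.014 and Malat1 at 0.048. Without centring, the sign turned for Pvt1 at 0.0018, E130102H24Rik at 0.0041, Mir9-3hg at 0.0055, Gm17762 at 0.0074, Mir124a-1hg at 0.0085, 4922502B01Rik at 0.0090 and Malat1 at 0.015. At the stricter q-value, the sign turned for Rmst at -0.067. Under quantile normalization, the sign turned for H19 at -0.15, Mir17hg at -0.011, 5730522E02Rik at -0.0022 and 4922502B01Rik at 0.0074. With lists of equal length, the sign turned for Rmst at -0.26, Pantr2 at -0.098, Mir124a-1hg at 1.0e-05, Pvt1 at 0.0023 and Malat1 at 0.0068. With equal autosomal lengths, the sign turned for Rmst at -0.26, Pantr2 at -0.099 and Malat1 at 0.0057. With 1 library left out in turn, the difference of at least 1 such fit changed sign for 2810410L24Rik from -0.030 to 0.086, 4922502B01Rik from -0.054 to 0.014, 5730522E02Rik from -0.053 to 0.064, C130071C03Rik from -0.030 to 0.045, E130102H24Rik from -0.043 to 0.020, Gm17762 from -0.042 to 0.022 and Gm52046 from -0.060 to 0.0025. The same held for Malat1 from -0.020 to 0.023, Miat from -0.073 to 6.9e-05, Mir100hg from -0.0058 to 0.089, Mir124-2hg from -0.11 to 0.028, Mir124a-1hg from -0.039 to 0.018, Mir9-3hg from -0.029 to 0.0093 and Oip5os1 from -0.068 to 0.094. The same held for Pantr2 from -0.060 to 0.16, Pvt1 from -0.095 to 0.021, Rmst from -0.24 to 0.20, Snhg11 from -0.022 to 0.043, Snhg17 from -0.14 to 0.074, Sox1ot from -1.13 to 0.30 and Tunar from -0.021 to 0.10. Sox1ot was at -0.68 with all libraries and at 0.30 without transgenic 1. The window of Gm52046 was covered whole in every library, so its values come from the centring alone and show no difference in breadth. Centring shifts the log2 difference of every member by the same amount as that of Gm52046, -0.020 with all libraries. The turns without centring come from leaving this shift out. The cause of the other changes was not tested.

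With a replicate block in limma, 0 members were called, 48 were higher and 6 lower at an unadjusted p under 0.05, and the smallest adjusted p was 0.307. No share over all promoters was taken for the 48 and 6. Deviations of same-numbered libraries correlated at 0.044, 0.017, -0.032 and 0.243, and 1 control of 4 correlated best with its own number, so the numbers were not taken to pair the samples. Without reads, sampling error cannot be given, and coverage stops at the window's edge.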

Other observations

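Marking differed between kinds of gene name and between chromosomes. Of 145 members with a name other than a clone or prediction number, 29.0% were marked in all 8 libraries, against 12.4% of 828 Rik clones, 7.80% of 5216 Gm genes and 6.06% of 132 LOC genes. By chromosome the share ran from 4.89% of 348 members on chromosome 6 to 14.0% of 443 on chromosome 13. Gene length made little difference, with 9.79% of 633 members under 2000 bp and 10.7% of 569 over 50000 bp marked in all 8, and between 8.11% and 8.98% in the classes between.

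Some muscle-associated microRNA hosts differed in these neuronal nuclei. Mir1a-1hg, which encloses Mir1a-1 and Mir133a-2, was marked in all 8 libraries with a mean of 1132 bp covered, while Lincmd1, which encloses Mir206 and Mir133b, was marked in none. Mirc35hg, which encloses the sensory microRNAs Mir182, Mir96 and Mir183, was marked in 5 libraries with a mean of 441 bp. Lncppara, which encloses Mirlet7b and Mirlet7c-2, was marked at neither end in any library.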
